A study of Capra hircus with 8 samples.

Results

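The Rfam miRNA precursor families are the 168 features that the deposited table types as precursor, out of 5093 features in all. Each carries an Rfam identifier starting RF and stands for a family of hairpins across species, such as mir-181 or let-7, whereas the goat miRNAs of the same table stand one by one under names with the prefix chi-. The study sequenced small RNA from mammary gland cells of Lanshan dairy goats grown in 3D culture, in 8 libraries of 4 groups of 2. In the overexpression group a virus brought in the circular RNA that the series text writes as cirRNA28250 (titles cRNA28250), and it was compared with the control group 5NC. In the knockdown group the expression of that RNA was inhibited (titles cKDmix), and it was compared with the control group 3NC. The series text lists each control next to its modification without stating the pairing outright, the content of the 2 controls is not described, and neither ages nor the number of animals behind the cells are given. Whether both libraries of a group stem from separate cultures is not stated, and p-values therefore describe the spread between libraries, which may be technical.

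A miRNA is cut from a hairpin precursor, by Drosha in the nucleus and Dicer in the cytoplasm, and the mature strand then guides Argonaute to matching messenger RNAs. Members of a family share a seed or an ancestor and often repress overlapping targets. In mammary tissue, miR-200 and miR-205 are known from the epithelium, miR-143 and miR-145 from stroma and smooth muscle, and miR-21 and miR-221 from proliferating cells. Reads were assigned by the authors, and the rule that sent a read to an Rfam family or to a chi- name is not given in the sources used here. Of the 168 families, 86 had a chi- name of the same number in the table and 82 had none.

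The families held 479379 and 67175 reads in the overexpression libraries, 307965 and 380109 in the 5NC libraries, 22193 and 19489 in the knockdown libraries, and 205550 and 225477 in the 3NC libraries. As a share of all reads this was 3.85% and 0.975% in overexpression, 1.96% and 3.06% in 5NC, 0.337% and 0.0608% in knockdown, and 2.54% and 1.72% in 3NC libraries. Both knockdown libraries lay below all others on this measure, and counting error was small (exact 95% binomial interval of 3.84% to 3.86% in overexpression library 1). The mean share was 0.199% ± 0.195 in knockdown and 2.13% ± 0.578 in 3NC libraries (SD, n = 2 each), and 2.41% ± 2.03 in overexpression and 2.51% ± 0.781 in 5NC libraries (SD, n = 2 each). Measured against the miRNA reads alone, which are the chi-, predicted and precursor features together, the order was different. The families then made up 8.88% and 14.4% in overexpression, 5.76% and 11.4% in 5NC, 11.1% and 13.7% in knockdown, and 10.6% and 7.84% in 3NC libraries, and the ranges of the groups overlapped except that knockdown lay above 3NC. An exact test of 2 libraries against 2 cannot reach 0.05, so these shares were not tested.

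**Figure D1:**
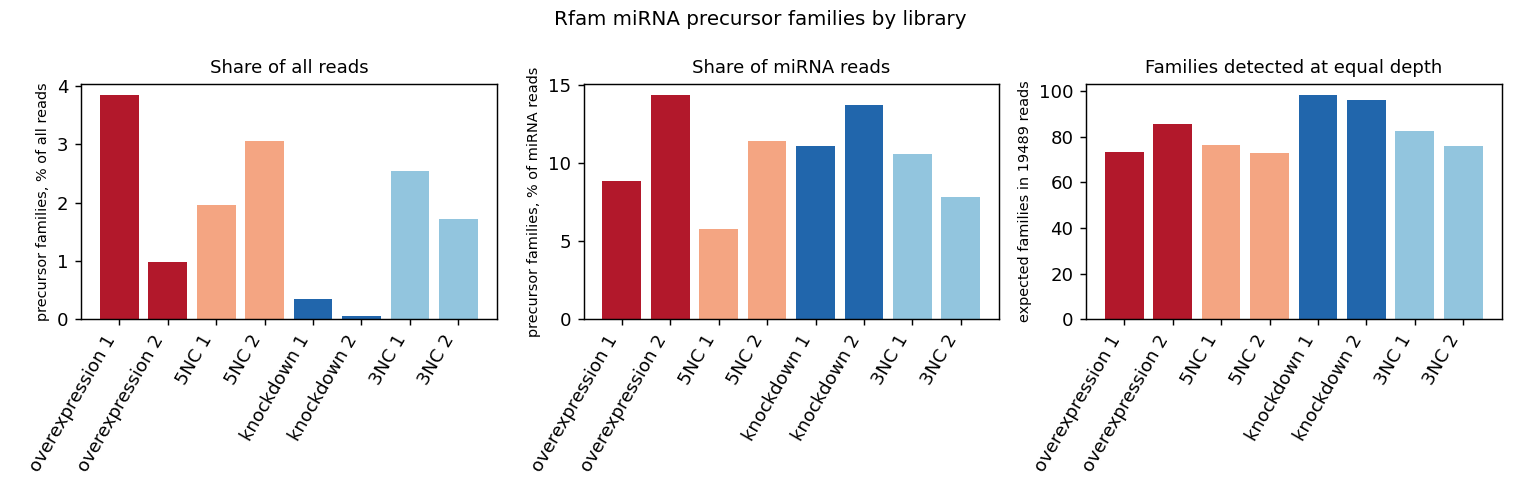
Precursor families in each library, as a percentage of all reads (left), as a percentage of miRNA reads (middle) and as the number of families expected among 19489 precursor reads (right). Bars are single libraries. The knockdown libraries are lowest on the left (0.337% and 0.0608%) and highest on the right (98.5 and 96.0 families).

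The whole table differs between libraries in ways that touch every value below. Total reads ran from 6588354 to 32066029 and miRNA reads from 141924 to 5401406, with 199642 and 141924 in the knockdown libraries, so that 3 reads of a family correspond to 6.19 and 8.37 CPM there and to 0.862 to 5.58 CPM elsewhere. CPM means reads scaled to 1000000 miRNA reads after TMM factors, which ran from 0.604 to 2.52. Ribosomal RNA took 27.3% of the reads of knockdown library 1, against 1.14% to 5.21% in the other 7 libraries, and predicted piRNAs took 43.9% of knockdown library 2. Markers read from the chi- names also set single libraries apart: 8 of 9 listed epithelial names were in the table, with a summed level of 15941 CPM in 5NC library 1 and 143 to 955 CPM elsewhere, while 5 mesenchymal names summed to 575 CPM in 5NC library 1 and 7393 to 35918 CPM elsewhere. Most of the epithelial sum of 5NC library 1 came from miR-183 (12107 CPM) and miR-182 (3542 CPM), which share a cluster. The miR-141 and miR-200 names did not stand apart there, at 61.5 CPM against 18.0 to 315 CPM elsewhere. Muscle names (4) reached 18397 CPM in knockdown library 2, against 169 to 3110 CPM elsewhere. The part of these differences in any result on the families was not tested. Fewer cells of a type and less of an RNA per cell cannot be told apart in such bulk libraries.

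The 168 families were very unequal. The top 5 held 72.2% and the top 10 held 85.9% of the 1707337 precursor reads. At the other end, 49 families had under 10 reads in total, 17 of them a single read, and 30 were seen in 1 library only. In every library 63 families were found. Between 96 and 116 families were detected per library, and at an equal depth of 19489 reads the expected number was 98.5 and 96.0 in knockdown against 82.7 and 75.9 in 3NC libraries, and 73.3 and 85.6 in overexpression against 76.5 and 73.1 in 5NC libraries. The knockdown libraries thus spread their reads over more families: their top 5 families held 57.7% and 57.8% of precursor reads, against 74.2% and 74.6% in 3NC libraries and 74.6% to 80.6% in the overexpression and 5NC libraries.

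Families mir-92 and mir-181 led in most libraries. The mir-92 family (RF00464), which belongs to the mir-17 group of clusters that promote proliferation, had 38288 and 56520 CPM in overexpression, 18753 and 39727 CPM in 5NC, 1657 and 10194 CPM in knockdown, and 30700 and 35673 CPM in 3NC libraries. The mir-181 family (RF00076), known from lymphocyte development in mouse, had 43014 and 22406 CPM in overexpression, 30828 and 47505 CPM in 5NC, 6719 and 9264 CPM in knockdown, and 42634 and 25588 CPM in 3NC libraries. Both were low in the 2 knockdown libraries, and the overexpression and 5NC libraries overlapped. A lack of overlap between 2 libraries and 2 others was common here: of the 991 features tested for levels, 32.6% did not overlap in CPM between overexpression and 5NC, 53.4% between knockdown and 3NC, and 43.8% between 3NC and 5NC, and of the 97 tested families 46.4%, 52.6% and 48.5% did not. The difference of knockdown over 3NC was -2.49 ± 1.05 on the log2 scale for mir-92 (adjusted p = 0.295) and -2.09 ± 0.85 for mir-181 (adjusted p = 0.282), neither past the edgeR quasi-likelihood test, and with miRNA totals alone it was -0.67 for mir-92 and -0.33 for mir-181.

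The next families included a set that is transcribed together in mammals as clusters of mir-23, mir-24 and mir-27. Family mir-24 (RF00178) had 11609 and 2901 CPM in overexpression, 6344 and 4795 CPM in 5NC, 5415 and 2196 CPM in knockdown, and 8262 and 10986 CPM in 3NC libraries. Family mir-23 (RF00642) had 4590 and 2704 CPM in overexpression, 8213 and 4336 CPM in 5NC, 1529 and 1326 CPM in knockdown, and 5839 and 6107 CPM in 3NC libraries. For mir-24, mir-23 and also mir-27 (1568 and 1298 CPM in knockdown, 2005 and 2598 CPM in 3NC libraries) the knockdown libraries were below both 3NC libraries, but the direction depends on scaling: the difference of mir-24 was -1.34 in the main scaling and 0.46 with miRNA totals alone, that of mir-27 was -0.68 and 1.12, and that of mir-23 stayed below 0 (log2). Family mir-193 (RF01895) had 6601 and 13282 CPM in overexpression, 284 and 19472 CPM in 5NC, 4000.0 and 5187 CPM in knockdown, and 11035 and 9583 CPM in 3NC libraries, so that 5NC library 1 was the lowest of all. Its difference of knockdown over 3NC was -1.17 ± 1.45 and also turned with miRNA totals alone, to 0.62.

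Family mir-221 (RF00651), whose mature strand represses the cell cycle inhibitor p27 in human cells, had 10139 and 5665 CPM in overexpression, 1451 and 7532 CPM in 5NC, 646 and 1086 CPM in knockdown, and 8526 and 7379 CPM in 3NC libraries. Family let-7 (RF00027), which marks differentiated tissue and represses growth genes, had 6366 and 1040 CPM in overexpression, 860 and 3367 CPM in 5NC, 198 and 910 CPM in knockdown, and 2401 and 4312 CPM in 3NC libraries. Family mir-21 (RF00658), abundant in dividing and tumour cells, had 4838 and 756 CPM in overexpression, 42.5 and 1484 CPM in 5NC, 342 and 3982 CPM in knockdown, and 1675 and 2112 CPM in 3NC libraries. In CPM the knockdown libraries were below the 3NC libraries for mir-221 and let-7, whereas for mir-21 one was below and the other above. The difference of knockdown over 3NC for let-7 was -2.60 ± 1.31 on the log2 scale (edgeR adjusted p = 0.363). With miRNA totals alone it was -0.76.

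**Figure D2:**
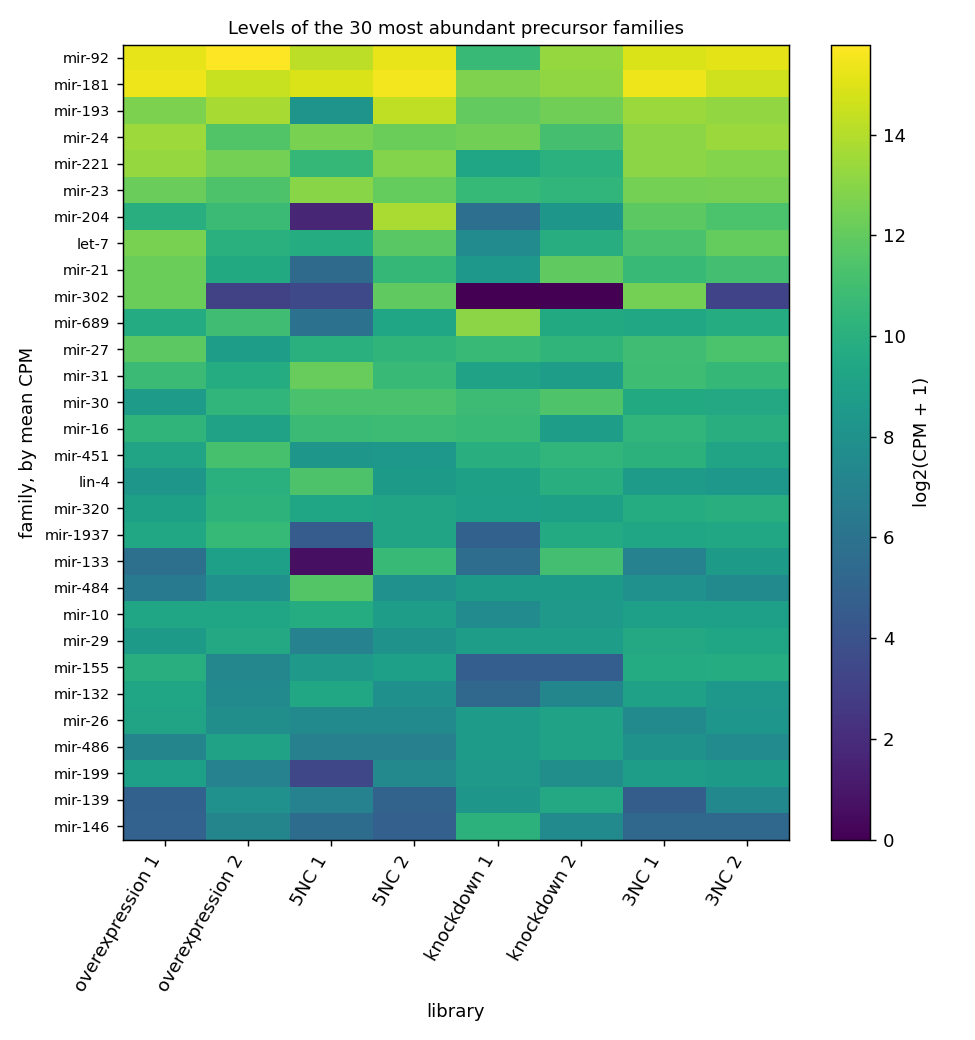
Level of the 30 families with the highest mean CPM in each of the 8 libraries, coloured as log2(CPM + 1). Dark cells show where a family nearly vanished from 1 library or 1 group, as for mir-302 (0 reads in both knockdown libraries) and for mir-204 and mir-133 in 5NC library 1 (8 and 2 reads).

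Family mir-302 (RF00668), the best known miRNA family of pluripotent stem cells and without a chi- name in the table, had rank 10 by mean level yet was carried by 3 libraries. Its reads numbered 15660 and 4 in overexpression, 35 and 9067 in 5NC, 0 and 0 in knockdown, and 8763 and 15 in 3NC libraries. In CPM this was 4804 and 7.44 in overexpression, 10.1 and 3845 in 5NC, and 5813 and 7.95 in 3NC libraries. One library of each group other than knockdown was thus high and its partner was at 10.1 CPM or less, close to the 6.19 and 8.37 CPM that a count of 0 allows in the knockdown libraries. Against that floor of 3 reads a library, the mean of 3NC put knockdown at least 400-fold lower, but this bound rests on 3NC library 1. The edgeR test gave an unadjusted p of 0.0393 and an adjusted p of 0.286; leaving out 1 overexpression or 5NC library gave adjusted p from 9.8e-05 to 0.00386, and DESeq2 gave 0.00261. Family mir-367, which shares a cluster with mir-302 in vertebrates, was seen in the same 3 libraries only, with 12 reads in overexpression library 1, 7 in 5NC library 2 and 6 in 3NC library 1, and 0 in the other 5. It was picked once its values were known.

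Other families were uneven in another pattern, and the examples in the plot were likewise picked after their values were seen. Family mir-204 (RF00646), whose precursor lies in an intron of TRPM3 in mammals, had 952 and 1761 CPM in overexpression, 2.3 and 14115 CPM in 5NC, 53.6 and 321 CPM in knockdown, and 3658 and 2520 CPM in 3NC libraries. Its chi- names showed the same spread, with 19.5 and 169961 CPM in the 5NC libraries. Family mir-133, a muscle family, had 2 reads or 0.574 CPM in 5NC library 1 and 1570 CPM in 5NC library 2. It had 55.2 and 480 CPM in overexpression, 49.5 and 2143 CPM in knockdown, and 125 and 391 CPM in 3NC libraries. The low values of 5NC library 1 extended to mir-21 (148 reads) and mir-193 (987 reads), and its high values to mir-183 (2071 reads), mir-182 (1812 reads), mir-484 (10347 reads) and mir-31 (15147 reads). Family mir-122, the liver family, was found at 3.99 and 188 CPM in overexpression, 0.574 and 0 CPM in 5NC, 18.6 and 600 CPM in knockdown, and 1.33 and 99.2 CPM in 3NC libraries, which is the higher value in library 2 of every group but 5NC.

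**Figure D3:**
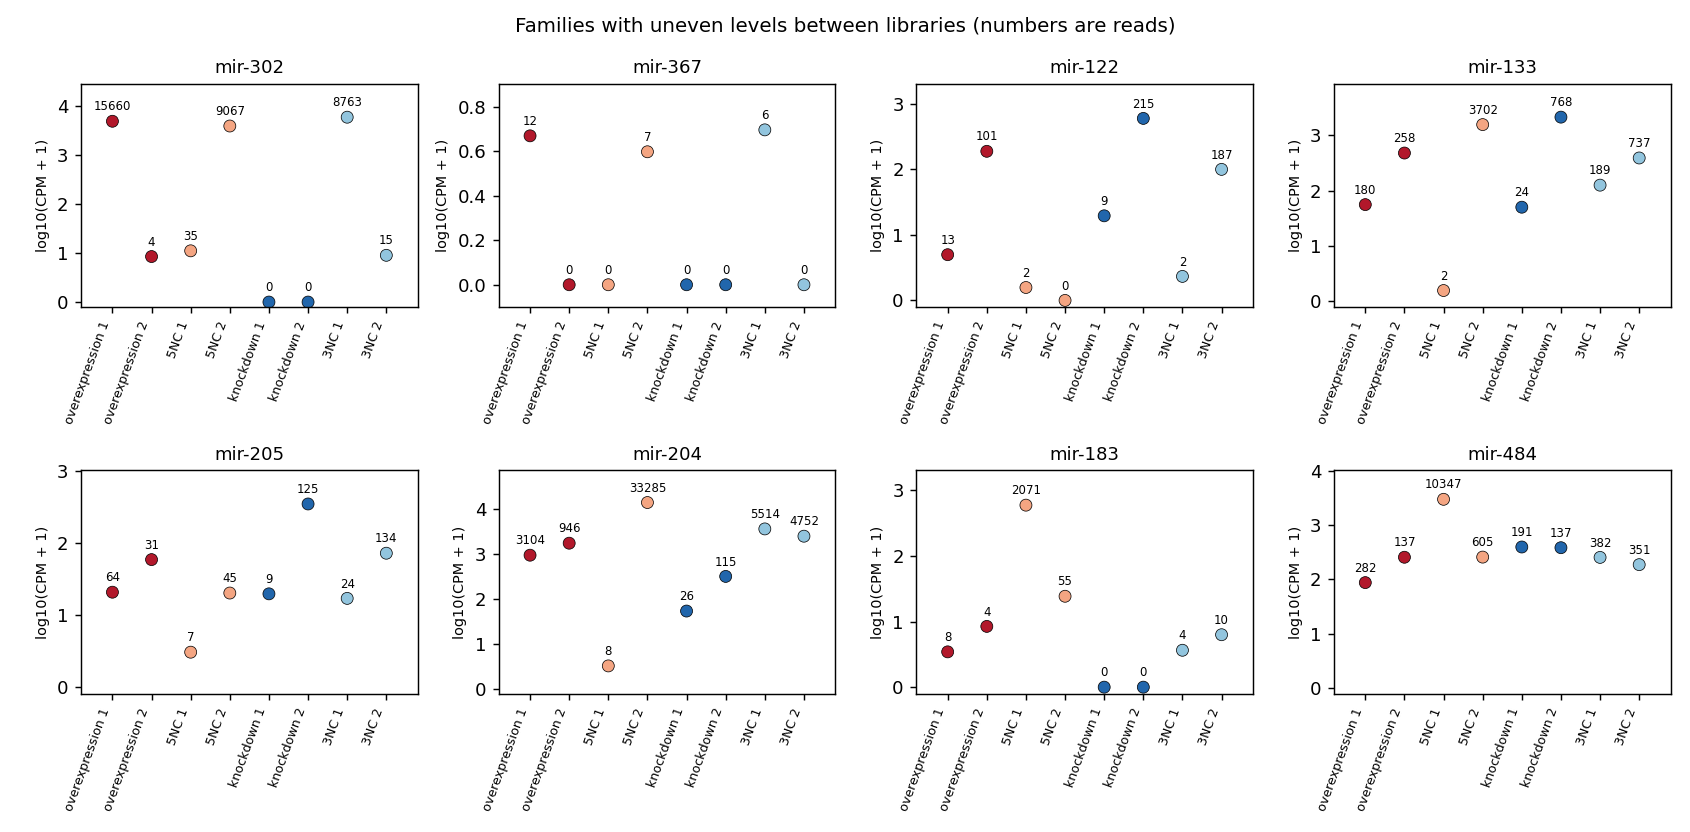
Level of 8 families as log10(CPM + 1) in each library, with the reads printed above each point. High and low libraries occur within the same group, as for mir-302 (15660 and 4 reads in overexpression) and mir-183 (2071 and 55 reads in 5NC).

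The 82 families without a chi- name held 6.65% and 6.0% of precursor reads in overexpression, 13.1% and 5.07% in 5NC, 29.2% and 11.5% in knockdown, and 8.31% and 4.11% in 3NC libraries. By name, 36 of them are animal families, 21 are plant, 23 invertebrate and 2 viral, a grouping made by hand after the counts were known. After mir-302, the highest was mir-689 (RF00871), a family described in mouse, with 820 and 2002 CPM in overexpression, 61.2 and 648 CPM in 5NC, 8442 and 781 CPM in knockdown, and 691 and 878 CPM in 3NC libraries. It was the top family of knockdown library 1, with 18.4% of its precursor reads, and that library also had 27.3% ribosomal RNA. Family mir-31 (RF00661), studied in breast cancer metastasis, had 1724 and 875 CPM in overexpression, 4351 and 1605 CPM in 5NC, 541 and 452 CPM in knockdown, and 1881 and 1441 CPM in 3NC libraries.

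Family lin-4 (RF00052) is named after the worm gene and covers the vertebrate mir-125 genes. It had 330 and 1027 CPM in overexpression, 2654 and 381 CPM in 5NC, 508 and 971 CPM in knockdown, and 402 and 345 CPM in 3NC libraries, with 5NC library 1 highest. Set beside the chi- names of miR-125, the lin-4 family row made up 1.92% and 3.05% of their joint reads in overexpression, 5.31% and 1.36% in 5NC, 5.67% and 3.90% in knockdown, and 1.84% and 2.21% in 3NC libraries. Family mir-1937 (RF01942), described in mouse, had 682 and 1506 CPM in overexpression, 23.6 and 607 CPM in 5NC, 28.9 and 801 CPM in knockdown, and 618 and 707 CPM in 3NC libraries, and so was low in library 1 of 5NC and of knockdown. The differences of knockdown over 3NC among these 4 families ran from -1.74 ± 0.98 for mir-31 to 2.56 ± 1.47 for mir-689 (log2), with adjusted p from 0.393 to 0.859 in edgeR's test. With miRNA totals alone the difference of mir-31 turned to 0.03 and that of mir-1937 from -0.68 to 1.15.

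The animal families without a chi- name also included tissue families. Family mir-205, an epithelial family of the mammary basal layer, had 19.6 and 57.7 CPM in overexpression, 2.01 and 19.1 CPM in 5NC, 18.6 and 349 CPM in knockdown, and 15.9 and 71.1 CPM in 3NC libraries. Family mir-203, which acts in skin epithelium, had 30.7 and 108 CPM in overexpression, 7.47 and 47.9 CPM in 5NC, 68.1 and 466 CPM in knockdown, and 55.7 and 94.9 CPM in 3NC libraries. For both, library 2 of knockdown was highest and library 1 of 5NC lowest. Family mir-375, known from pancreatic islets and luminal breast cells, had 83.8 and 242 CPM in overexpression, 27.3 and 31.8 CPM in 5NC, 204 and 201 CPM in knockdown, and 85.6 and 110 CPM in 3NC libraries, and was picked after its values were seen. Its difference was 2.46 ± 1.14 for overexpression over 5NC (adjusted p = 0.577) and 1.05 ± 1.09 for knockdown over 3NC (adjusted p = 0.596, edgeR). Family mir-210, induced by low oxygen, stayed within 22.3 to 53.6 CPM in all 8 libraries.

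Families with plant names held 0.168% and 0.127% of precursor reads in overexpression, 0.232% and 0.148% in 5NC, 3.24% and 0.0667% in knockdown, and 0.374% and 0.204% in 3NC libraries. The leading ones were mir-166 (292 and 23 reads in overexpression, 179 and 114 in 5NC, 167 and 4 in knockdown, 223 and 60 in 3NC libraries) and MIR168 (227 and 36 in overexpression, 259 and 94 in 5NC, 84 and 0 in knockdown, 244 and 265 in 3NC libraries). Knockdown library 1 had the highest share but not the highest count. It held 720 plant-named reads, 168 of them from MIR167_1 and 94 from MIR169_2. Library 1 of overexpression, 5NC and 3NC held 807, 713 and 768 such reads. Invertebrate names held 0.0258% to 0.272% of precursor reads in 7 libraries and 1.15% in knockdown library 1, and mir-276 had the highest mean CPM of them. The virus names were TAR, with 0 to 32 reads a library, and mir-BART1, with 20 reads in overexpression library 1 and 0 elsewhere. Which molecules these reads came from was not tested.

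For the levels, all named features were tested together, 991 of them after the filter on low counts, among them 97 precursor families; the other 71 families were too low to be tested. With edgeR's quasi-likelihood test and an adjusted p under 0.05, no family and no other feature passed for overexpression over 5NC, for knockdown over 3NC or for 3NC over 5NC, so the background of calls is 0% in each. The smallest adjusted p of any feature was 0.577 for overexpression over 5NC, 0.263 for knockdown over 3NC and 0.710 for 3NC over 5NC. At an unadjusted p under 0.05, 7 families stood out for overexpression (7.22% of 97, against 7.37% of all features), 13 for knockdown (13.4%, against 16.0%) and 4 for the 2 controls (4.12%, against 6.05%). The shares of families were near or below the background. DESeq2, run as an alternative, called 6 of 78 families for overexpression (7.69%, background 6.88%), 13 of 83 for knockdown (15.7%, background 17.0%) and 3 of 60 for the controls (5.00%, background 5.30%).

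The families as a whole lay slightly above all features. The median log2 difference was 0.43 over the families and 0.20 over all features for overexpression over 5NC, 0.98 and 0.46 for knockdown over 3NC, and 0.46 and 0.39 for 3NC over 5NC. These medians depend on scaling. With miRNA totals and no TMM factors the medians for knockdown over 3NC were 2.74 over the families and 2.25 over all features, with 83.5% of the families higher against 67.0% in the main scaling. With TMM over all named features, 87 families were tested in place of 97. Their median for overexpression over 5NC was -0.0034, beside -0.19 over all features. Of those 87 families 49.4% were higher, against 59.8% of the 97 in the main scaling.

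In the comparison of overexpression with 5NC, the 3 families with the lowest p upward were mir-276, mir-122 and mir-192/215. Family mir-276 (RF00637), an insect family, had 23.3 and 70.7 CPM in overexpression and 4.88 and 2.97 CPM in 5NC libraries (3.54 ± 1.35, log2 difference ± SE; adjusted p = 0.577 in edgeR). Family mir-192/215 (RF00130), a p53-responsive family of gut and kidney, had 288 and 251 CPM in overexpression and 22.1 and 50.9 CPM in 5NC libraries (2.88 ± 1.15), and the chi- names of that family had 419 and 452 CPM in overexpression and 62.6 and 59.8 CPM in 5NC libraries. The mir-122 values given above had a difference of 7.96 ± 3.09 that depends on the prior count, because one 5NC library was at 0. Downward, mir-877 (RF00912), made from an intron of ABCF1, had 33.7 and 20.5 CPM in overexpression and 463 and 243 CPM in 5NC libraries (-3.69 ± 1.22). Family mir-183 (RF00663) had 2.45 and 7.44 CPM in overexpression and 595 and 23.3 CPM in 5NC libraries (-6.03 ± 2.0), and mir-182 (RF00702), from the same sensory cluster, had 7.06 and 9.31 CPM in overexpression and 521 and 43.7 CPM in 5NC libraries (-5.11 ± 1.97). Outside 5NC, mir-183 had 8 and 4 reads in overexpression, 0 and 0 in knockdown, and 4 and 10 in 3NC libraries. It reached the filter on low counts only through 5NC, so nothing is read from its direction or its adjusted p. All 6 had the same adjusted p of 0.577 in edgeR, and DESeq2 gave all 6 an adjusted p from 0.00246 (mir-877) to 0.0476 (mir-182). Without 5NC library 1 the difference was -2.23 for mir-183 and -2.39 for mir-182, and without overexpression library 2 it was 3.18 for mir-122 and 2.24 for mir-276.

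In the comparison of knockdown with 3NC, the upward families were mir-126, mir-276 and mir-146. Family mir-126 (RF00701), the endothelial miRNA from an intron of EGFL7, had 633 and 405 CPM in knockdown and 16.6 and 23.9 CPM in 3NC libraries (4.68 ± 1.43; edgeR adjusted p = 0.272, DESeq2 adjusted p = 0.00137). Its chi- names moved alongside, at 6568 and 9267 CPM in knockdown and 545 and 652 CPM in 3NC libraries, and overexpression library 2 was also high at 173 CPM for the family. Family mir-146 (RF00691), induced by NF-kB in innate immunity, had 1137 and 184 CPM in knockdown and 38.5 and 39.2 CPM in 3NC libraries (4.09 ± 1.44; edgeR adjusted p = 0.281), and mir-276 had 196 and 106 CPM in knockdown and 7.96 and 10.1 CPM in 3NC libraries (4.05 ± 1.38; edgeR adjusted p = 0.276). Without knockdown library 1 the difference of mir-146 was 2.25.

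Downward, mir-155 (RF00731), a family of activated lymphocytes and of inflammation, had 24.8 and 25.1 CPM in knockdown and 826 and 882 CPM in 3NC libraries (-5.09 ± 1.33; edgeR adjusted p = 0.263, DESeq2 adjusted p = 0.000213). The chi- names of mir-155 had 30.9 and 159 CPM in knockdown and 1266 and 1370 CPM in 3NC libraries. Family mir-221, with values given above, differed by -3.20 ± 1.08 (edgeR adjusted p = 0.276), and its chi- names had 569 and 896 CPM in knockdown and 2324 and 2122 CPM in 3NC libraries. Family mir-378 (RF00741), from an intron of the metabolic regulator PPARGC1B, had 8.25 and 0 CPM in knockdown and 88.2 and 81.7 CPM in 3NC libraries (-4.27 ± 1.60; edgeR adjusted p = 0.281). With miRNA totals alone the differences were -3.30 for mir-155, -1.41 for mir-221 and -2.53 for mir-378, and without knockdown library 1 that of mir-378 was -10.3, with the remaining library at 0 reads.

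In the comparison of the 2 controls, the upward families in 3NC over 5NC were mir-122 (7.03 ± 2.97), mir-454 and mir-192/215 (131 and 209 CPM in 3NC libraries against 22.1 and 50.9 CPM in 5NC libraries, 2.22 ± 1.12). Family mir-454 (RF00746) had 9 and 13 reads in 3NC libraries and 0 in both 5NC libraries. It reached the filter on low counts only through 3NC, so nothing is read from its direction. Downward were mir-182 (3.32 and 0 CPM in 3NC libraries against 521 and 43.7 CPM in 5NC libraries, -7.39 ± 2.19), mir-183 (2.65 and 5.30 CPM in 3NC libraries against 595 and 23.3 CPM in 5NC libraries, -6.25 ± 2.0) and mir-187 (1.99 and 0 CPM in 3NC libraries against 56.0 and 20.4 CPM in 5NC libraries, -5.20 ± 2.12). Because mir-183 was tested only through 5NC, nothing is read from its direction here either. The adjusted p in edgeR was 0.710 for mir-122, mir-454, mir-182, mir-183 and mir-187 and 0.721 for mir-192/215. Without 5NC library 1 the difference was -4.67 for mir-182 and -2.54 for mir-183, without 3NC library 1 it was -11.9 for mir-182 and -9.03 for mir-187, and without 3NC library 2 it was 1.95 for mir-122. Overexpression and 3NC were both set against the same 5NC libraries, so families such as mir-182, mir-183, mir-122 and mir-192/215 that appear in both comparisons share those values.

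**Figure D4:**
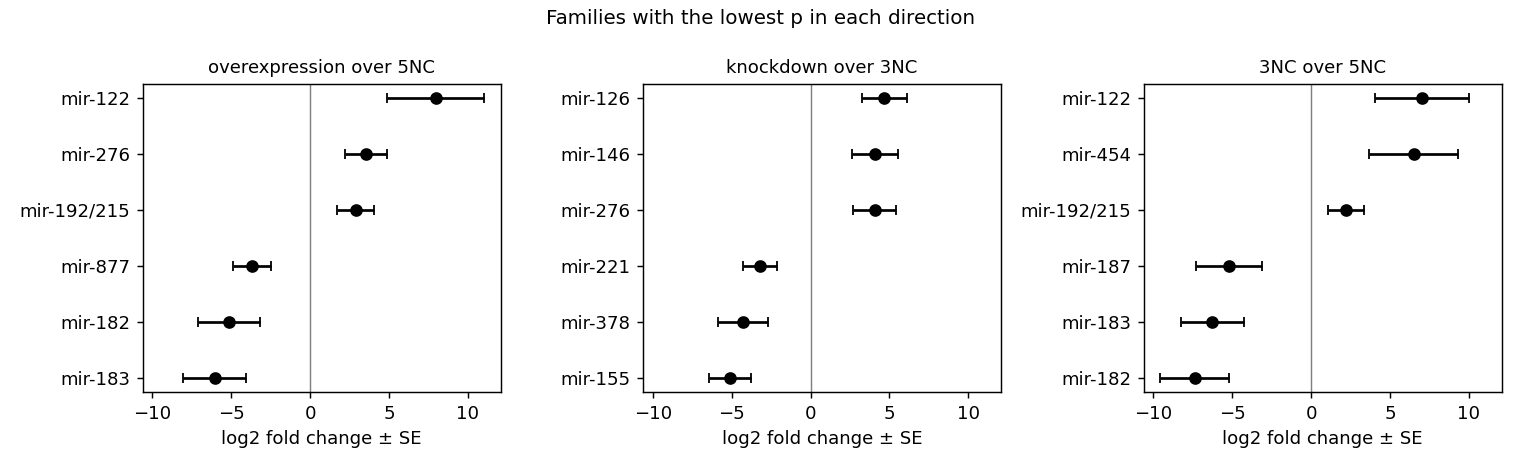
Log2 difference ± SE from edgeR for the 3 families with the lowest p in each direction in each comparison, ordered by size. Values right of 0 are higher in the first group of the panel title. No family passed an adjusted p of 0.05, and the SE spans from 1.08 (mir-221) to 3.09 (mir-122).

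Families were also counted by role, on lists drawn up with earlier results of these libraries known, in edgeR's test with none called in any list. For knockdown over 3NC, 4 of the 5 tested epithelial families were higher (median 1.34, log2), 3 of 4 mesenchymal (0.91), 2 of 2 muscle (2.17) and 3 of 3 blood families (1.08), beside a median of 0.46 over all features. For overexpression over 5NC, 2 of 5 epithelial families were higher (median -3.67), 4 of 4 mesenchymal (2.67), 1 of 2 muscle (0.01) and 3 of 3 blood families (1.59), beside 0.20 over all features. For 3NC over 5NC the medians were -2.90 epithelial, 2.97 mesenchymal, -0.36 muscle and 1.14 blood, beside 0.39 over all features. The epithelial counts and medians against 5NC include mir-183, which was tested only through 5NC, so nothing is read from their direction. With TMM over all named features mir-214 was not tested, and the mesenchymal median for knockdown over 3NC was -0.06 over the remaining 3 families. The middle one of those 3, mir-143, was at 0.32 in the main scaling. The muscle median for overexpression over 5NC was -0.37 with TMM over all named features. Across the other 8 lists with a tested family, medians ran from 0.04 to 2.58 for overexpression over 5NC, from -2.60 (let-7) to 4.68 (mir-126) for knockdown over 3NC and from -0.19 to 1.47 for 3NC over 5NC. Among the epithelial families, mir-183 (tested only through 5NC), mir-96 and mir-182 were lower in overexpression and in 3NC than in 5NC. The other 2 were higher: mir-8/mir-141/mir-200 by 2.16 in overexpression and 1.34 in 3NC, and mir-205 by 1.86 and 2.04. The epithelial and mesenchymal medians against 5NC both involve 5NC library 1. In that library chi-miR-183 and chi-miR-182 were high and the mesenchymal chi- names were low, as given above. Of the 22 listed families of the DLK1-DIO3 imprinted cluster, 2 were in the table, mir-127 with 1 read and mir-299 with 13 reads in all, and neither could be tested.

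The family row was then set against the chi- names of the same number within each library, which needs no scaling between libraries. Of the 86 families with such names, 66 had at least 10 reads on each side. Over all libraries the family row made up a median of 16.4% of the joint reads of a family, with 10 families over 50%, 30 from 10% to 50%, 20 from 1% to 10% and 6 up to 1%. The median over families changed little between libraries, at 11.2% and 15.3% in overexpression, 11.1% and 13.8% in 5NC, 10% and 16.3% in knockdown, and 13.5% and 12.8% in 3NC libraries. Among the families with joint reads in all 4 libraries of a comparison, the share did not overlap between overexpression and 5NC for 21 of 64 (32.8%), between knockdown and 3NC for 30 of 63 (47.6%) and between 3NC and 5NC for 22 of 64 (34.4%). Because the assignment rule is not given, a high share says only that more reads were assigned to the family row than to the chi- names.

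At the high end, mir-181 made up 96.5% and 93.9% in overexpression, 82.4% and 97.0% in 5NC, 84.9% and 87.6% in knockdown, and 96.1% and 95.7% in 3NC libraries; the chi- names of number 181 in the table are miR-181b, c and d. Family mir-24 lay between 44.3% and 63.3% in all libraries and mir-193 between 20.3% and 67.0%. At the low end, let-7 made up 0.196% to 2.09%, since its 16 chi- names held 5183748 reads against 44417 in the family row. In 9 families with at least 1000 chi- reads the family row had under 10 reads and was not tested, among them mir-423 (6 family reads, 615408 chi- reads), mir-328 (4 and 231716) and mir-342 (1 and 33064). Family mir-451, which is cut by Argonaute instead of Dicer in red cells, was steady from 25.8% to 34.5%, and mir-21 ran from 0.116% in 5NC library 1 to 49.7% in knockdown library 2. In that library the 1427 family reads of mir-21 stood beside 1447 chi- reads, whereas the other 7 libraries ranged up to 8.24%. Both were singled out after their values were seen.

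For overexpression over 5NC no ratio passed (0 of 66, 0%), and 2 had an unadjusted p under 0.05 (3.03%). The lowest p values upward belonged to mir-92 (65.3% and 71.3% in overexpression, 19.2% and 41.7% in 5NC libraries), mir-425 (47.9% and 42.3% in overexpression, 3.42% and 27.2% in 5NC libraries) and mir-29 (11.8% and 12.8% in overexpression, 6.12% and 7.46% in 5NC libraries). Downward were mir-877 (13.9% and 6.32% in overexpression, 32.3% and 20.8% in 5NC libraries), mir-219 (0 and 0 family reads in overexpression, 100 and 8 in 5NC libraries) and mir-671 (0 and 0 family reads in overexpression, 6 and 3 in 5NC libraries). All 6 had an adjusted p of 0.679 in edgeR, with log2 differences of the ratio from -6.86 ± 3.44 (mir-219) to 2.84 ± 1.21 (mir-425). Those of mir-219 and mir-671 depend on the prior count, since the overexpression libraries were at 0. Of the 16 family reads of mir-671 in all libraries, 9 were in 5NC, so that it reached the minimum of 10 reads through the group where it was higher and nothing is read from its direction.

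For knockdown over 3NC, 3 of 66 ratios passed the edgeR test (4.55%, 2 higher and 1 lower), and 11 had an unadjusted p under 0.05 (16.7%). The ratio of mir-22 (RF00653), a widely expressed family that acts in heart muscle in mouse, was higher by 4.61 ± 0.69 on the log2 scale (adjusted p = 0.00382). The family row held 19 of 415 and 7 of 151 joint reads in knockdown, 4.58% (95% exact binomial interval 2.78% to 7.06%) and 4.64% (1.88% to 9.32%), against 2 of 1261 and 4 of 1825 in 3NC libraries, 0.159% (0.0192% to 0.572%) and 0.219% (0.0598% to 0.560%). The overexpression and 5NC libraries also lay between 0.120% and 0.208%, so both knockdown libraries were above the other 6. The family row had 39.2 and 19.5 CPM in knockdown and 1.33 and 2.12 CPM in 3NC libraries, and the chi- names had 817 and 402 CPM in knockdown and 835 and 966 CPM in 3NC libraries. Under 12 alternatives the ratio difference ran from 4.30 to 5.37 with adjusted p from 0.0023 to 0.069, and 11 of the 12 passed; without knockdown library 1, which leaves 7 family reads in the group, the adjusted p was 0.069.

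The ratio of mir-378 was lower by 3.82 ± 0.68 (log2 difference -3.82, adjusted p = 0.00722). Its family row held 4 reads beside 1244 chi- reads in knockdown library 1, 0.321% (0.0874% to 0.819%), and 0 beside 121 in library 2, which allows a share of up to 2.48%. In the 3NC libraries it held 133 and 154 reads, 4.37% (3.67% to 5.16%) and 3.57% (3.04% to 4.17%). Overexpression and 5NC libraries had 2.70% and 4.84%, and 1.94% and 1.89%, so knockdown library 1 was below the other libraries with family reads, while the 0 of knockdown library 2 allows a share above those of 5NC. Under 13 alternatives the difference ran from -5.32 to -3.27, and it missed the threshold without knockdown library 1 (adjusted p = 0.109) and with mature chi- counts only (0.0542). The third ratio was that of mir-34 (RF00456), a family switched on by p53, and it rests on 1 library. Of its 18 family reads in all, 7 lay outside knockdown library 1, so that it reached the minimum of 10 reads only through that library, and nothing is read from its passing. It had 11 family reads in knockdown library 1 (0.207%) and 0 in knockdown library 2 and both 3NC libraries, where 0 reads allow 0.153%, 0.00895% and 0.0058%. Its log2 difference of 8.59 ± 1.79 (edgeR adjusted p = 0.0335) depends on the prior count and on that same library.

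The other 3 ratios named for knockdown did not pass. Family mir-7, known for its many sites in the circular RNA CDR1as, made up 19.9% and 36.4% in knockdown and 2.73% and 3.29% in 3NC libraries (3.61 ± 1.19, adjusted p = 0.143 in edgeR), and overexpression library 2 was at 20.4%. Family mir-365 made up 1.89% and 0% in knockdown and 45.0% and 60.3% in 3NC libraries (-7.60 ± 2.15, adjusted p = 0.0933), with 364 and 775 chi- reads in the knockdown libraries. Family mir-221 made up 53.1% and 54.8% in knockdown and 78.6% and 77.7% in 3NC libraries (-1.61 ± 0.51, adjusted p = 0.139). When chi-miR-222, which belongs to the same family, was added to the chi- side, the shares became 10.4% and 9.0% in knockdown and 4.54% and 4.25% in 3NC libraries, and the difference reversed to 1.23.

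**Figure D5:**
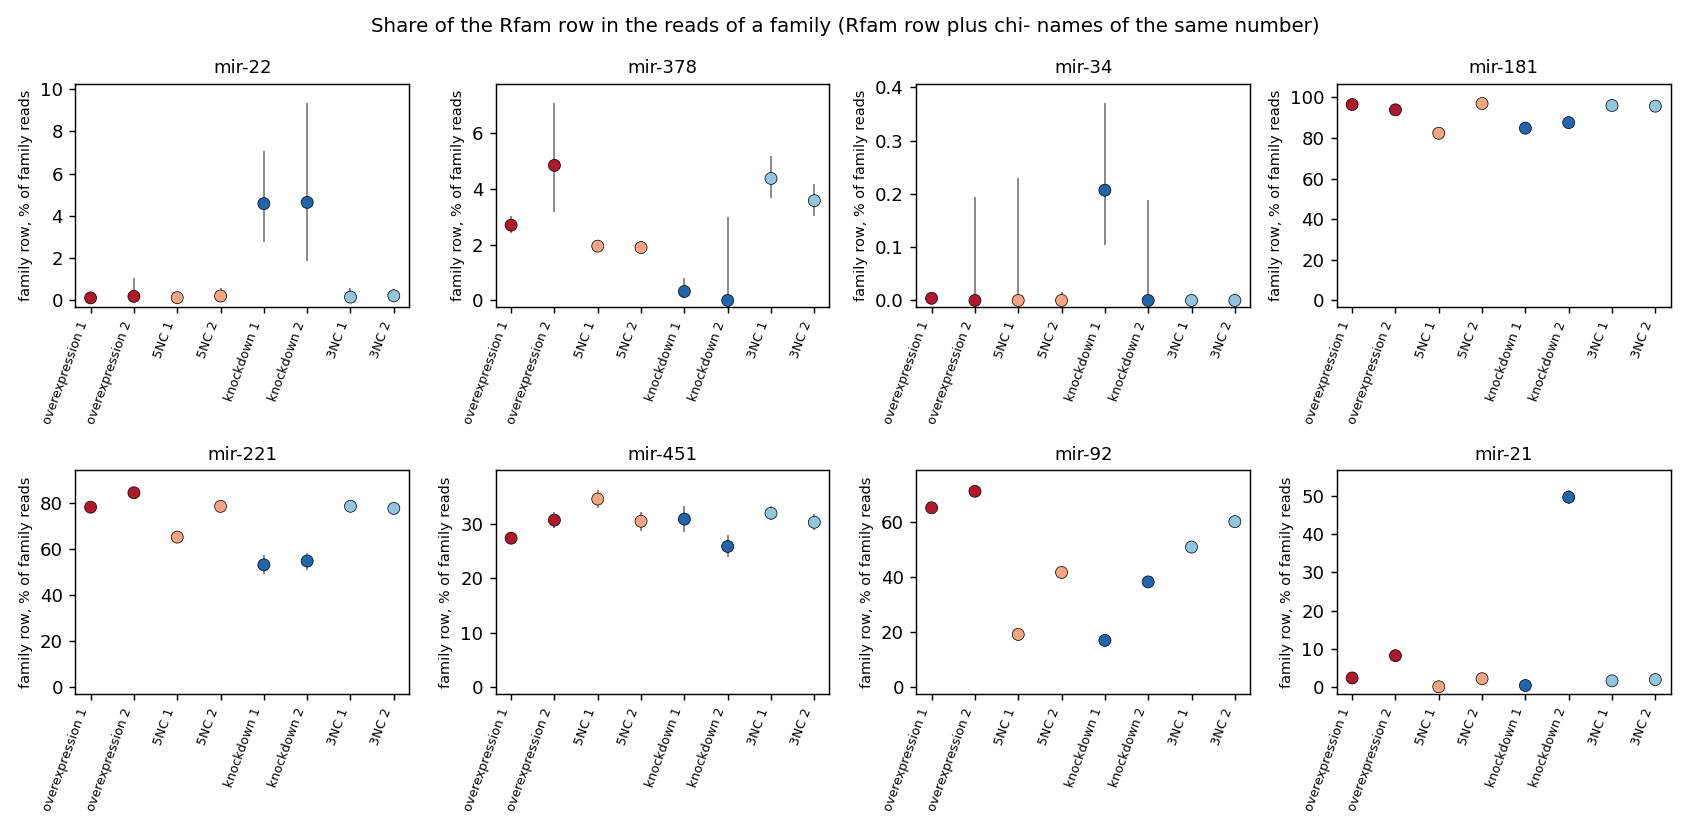
Share of the Rfam family row in the joint reads of the family row and the chi- names of the same number, in percent, for 8 families in each library; lines are exact 95% binomial intervals, which cover counting error only. For mir-22 the knockdown libraries (4.58% and 4.64%) lie above the other 6, and for mir-451 all libraries lie between 25.8% and 34.5%.

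Between the controls, no ratio passed in edgeR (0 of 66, 0%) and 1 had an unadjusted p under 0.05 (1.52%). Upward in 3NC over 5NC were mir-188 (8 and 4 family reads in 3NC, 0 and 0 in 5NC libraries), mir-425 (44.4% and 37.3% in 3NC, 3.42% and 27.2% in 5NC libraries) and mir-19 (5 and 7 family reads in 3NC, 0 and 1 in 5NC libraries). Downward were mir-182 (7.04% and 0% in 3NC, 12.8% and 19.5% in 5NC libraries), mir-16 (12.0% and 11.1% in 3NC, 32.6% and 14.5% in 5NC libraries) and mir-219 (9 and 0 family reads in 3NC, 100 and 8 in 5NC libraries). All 6 had an adjusted p of 0.697 in edgeR. Of the 13 family reads of mir-188 in all libraries, 12 were in 3NC, so that it reached the minimum of 10 reads only through 3NC and nothing is read from its direction. The difference for mir-16 was -1.14 ± 0.63 and became 0.0096 when chi-miR-15 and chi-miR-195 were counted with it.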

How the data were processed

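Small RNA read counts of 8 libraries in 4 groups of 2 were analysed. Per the file headers, the authors deposited for each feature and library a count and a TPM value; the counts are raw whole numbers, and the deposited TPM differs by at most 0.0141% from the count scaled to 1000000 reads without a length term (features with 1000 reads or more). Aligner, counting tool, genome build and the treatment of reads matching several features: not given in the sources used here. No positions or sequences are printed, and families with near-identical members are uncertain. Exon, intron, intergenic and repeat sums (4 classes, 44.3% to 63.1% of the reads of a library) were left out of library sizes and tests, and 1 feature carries no type. Mature and hairpin counts of a chi- name were summed, which counts a read more than once if the authors placed it in both.

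Tests of levels used edgeR 4.0.16 under R 4.3.3 (robust quasi-likelihood test, TMM factors from miRNA features, filterByExpr with a minimum count of 10, all 8 libraries, 4 residual degrees of freedom, common dispersion 1.40). Two-sided p-values were adjusted (Benjamini-Hochberg) over the 991 features tested, with a threshold of 0.05; SE is the log2 difference divided by the root of the F statistic. The ratio test used the same tool on the family row and the chi- sum of each library, with a library term, for 66 families with at least 10 reads on each side, matched by number. Floors are 3 reads per library, intervals are exact at 95%, and both cover counting error only. DESeq2 1.42.0, other scalings and filters, a replicate block and leaving out each library were alternatives. The scripts were tested on simulated data.

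The families, role lists and rules were chosen with earlier results of these data known; the plant, invertebrate and virus classes and the map of wider families were written after the counts were seen. Values per library are given for the 10 families with the highest mean CPM, the 5 highest without a chi- name, and the 3 families with the lowest p per direction of each comparison, plus families named as chosen after their values were seen, which include mir-27, mir-375, mir-205, mir-203, mir-210, mir-133 and the plant, invertebrate and virus names. Replicate numbers were not used to pair libraries.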

Additional observations from a re-analysis of the deposited data

How the results depend on the processing

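For the 36 results of families named by the lowest p (18 levels, 18 ratios), 483 values under the alternatives kept their direction and side of the threshold, 19 passed it only under the alternative, 6 lost it and 2 reversed. The reversed ones were both ratios with wider families, a setting that adds chi- names to the chi- side. They were mir-221 for knockdown over 3NC (1.23 in place of -1.61) and mir-16 for 3NC over 5NC (0.0096 in place of -1.14). Over all 97 tested families, the sign of the levels difference changed in at least 1 of the 3 other scalings for 17 in overexpression over 5NC, 18 in knockdown over 3NC and 17 in 3NC over 5NC. With TMM over all named features only 87 of the 97 were tested. Under DESeq2 the families called were 6 for overexpression over 5NC, 13 for knockdown over 3NC and 3 for 3NC over 5NC, against 0 each in edgeR, and the features called were 47, 123 and 26. Without a filter on low counts edgeR called 4, 87 and 2 features, and no family. Other scalings, testing miRNA features only and mature chi- counts only called no feature for the levels. Leaving out 1 library gave 0 to 4 features for overexpression over 5NC, 1 to 446 for knockdown over 3NC (446 without knockdown library 1, 93 without either 5NC library) and 0 to 4 for 3NC over 5NC; families called were 0, 0 to 1 and 0, namely mir-302 without an overexpression or 5NC library and MIR168 without knockdown library 1. Where 1 library remains in a group, it is assumed to vary like the others. The cause of these changes was not tested.

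For the ratios of knockdown over 3NC, 3 calls became 1 with mature chi- counts only (mir-22), 1 with at least 100 reads a side (mir-378; mir-22 and mir-34 have fewer reads), and 0 to 6 when leaving out 1 library, 0 without knockdown library 1 and 6 without 5NC library 1. Ratios called were 0 to 3 for overexpression over 5NC and 0 to 1 for 3NC over 5NC, in both cases above 0 only without 5NC library 2 (mir-425, mir-143 and mir-193; mir-193). Correlations of same-numbered libraries' deviations ran from -0.061 to 0.16 and were over 0.1 for the 3 pairs among overexpression, knockdown and 3NC but not for those with 5NC, so the numbers were not taken to pair libraries. A fit with the replicate block called 0 families and 0 features for all 3 levels comparisons and 0, 3 and 0 ratios. As a share of named reads the families made up 4.41% in overexpression, 6.46% in 5NC, 0.493% in knockdown and 4.98% in 3NC libraries, and as a share of miRNA reads 11.6% in overexpression, 8.59% in 5NC, 12.4% in knockdown and 9.22% in 3NC libraries. The 71 other families were not tested for levels, and the SE of the log2 differences in levels of the families named by the lowest p ran from 1.08 to 3.09.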
